A study of Mus musculus with 5 samples.

Results

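The planar cell polarity genes described here were Vangl1, Vangl2, Celsr1, Celsr2, Fzd3, Fzd6, Scrib, Dvl1, Dvl2 and Ptk7. They were chosen by name, as rows of the deposited count tables that carry 1 of these 10 symbols, and all 10 were found among the 23284 gene symbols. RNA-seq was performed on polyA-selected RNA of mouse neural tubes that had been freed from the embryo by hand and with enzymes. There were 2 EpoR-null samples (EpoR -/-, both alleles of the erythropoietin receptor gene deleted) and 3 littermate control samples. Of the controls, 2 were wild type (EpoR +/+) and 1 was heterozygous (EpoR +/-, 1 allele deleted). Whether a sample held a single embryo or a pool is not given in the sources used here. The embryos came from EpoR +/- matings, received no treatment that the labels record, and are given as E8.5 in the labels, an earlier stage than in the study's own text. The deletion was carried by every cell of the embryo, so blood and vessels lacked the receptor as well as the neural tube, and the strain is not given in the sources used here.

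Planar cell polarity aligns cells within the plane of an epithelium. Frizzled receptors (Fzd3, Fzd6) with the Dishevelled adaptors (Dvl1, Dvl2) gather on one side of a cell and Vangl proteins on the other, while Celsr cadherins lie on both sides and bind each other across the junction between neighbours. In the neural plate this asymmetry directs the narrowing and lengthening by which the neural folds come to lie close enough to fuse, and mice that lack Vangl2, Celsr1, Scrib, Ptk7, both Fzd3 and Fzd6, or both Dvl1 and Dvl2 are known for failure to close the neural tube along hindbrain and spine.

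Levels are given as CPM, the read count of a gene scaled to a common library size after TMM normalization. The comparison of EpoR-null with control samples used the exact test of edgeR over the 12703 genes that passed a CPM of 1 in 2 or more samples, and a gene was called at p < 0.001 and a false discovery rate (FDR) below 0.05, the thresholds of the study. Of these genes, 4.77% were called, 3.84% as lower in the EpoR-null samples and 0.929% as higher. With the FDR threshold alone the shares were 5.49% lower and 1.81% higher. On simulated counts the exact test reported more false genes than its nominal FDR, which bears on every FDR and call given from it. Those counts used the dispersions estimated from these samples and had no trend on transcript length. The size of the excess in the real data is therefore not known. Read totals on genes were 19316126 to 41169218 per sample, which makes 3 reads equal to 0.0715 to 0.152 CPM, and the 10 genes had between 120 and 11003 reads in a sample. Epor itself stood at 2.35 and 1.62 CPM in the wild type samples, 0.476 in the library labelled heterozygote, against 0.354 and 0.669 for EpoR-null. The library labelled heterozygote thus lay between the EpoR-null samples for Epor, on 11 reads, and reads on Epor remained in both EpoR-null samples. The labelled tissue was checked with 7 neural progenitor markers (Sox1, Sox2, Sox3, Pax6, Pax3, Nes and Cdh2), with no marker at 0. Their summed level was 1716 to 1968 CPM in the controls, and 1751 and 1446 CPM in EpoR-null replicates 1 and 2. Nes weighs most in this sum, at 777 and 368 CPM in EpoR-null replicates 1 and 2. Pax3 and Cdh2 were also higher in replicate 1, but Sox1, Sox2, Sox3 and Pax6 were higher in replicate 2. Markers of other cells were present too, and in all 6 lists of them the summed level was lowest in the library labelled heterozygote: 4 primitive erythroid markers summed to 30.6 CPM there against 442 to 1345 CPM elsewhere, and 4 endothelial markers to 9.68 CPM against 85.9 to 209 CPM. None of the markers that could be tested was called, and their part in the results below was not tested.

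Sequences of the members show how alike the paralogues are, and therefore whether their reads can be told apart. The Vangl proteins end in a short motif that binds PDZ domains such as those of Scrib and Dishevelled. The last 36 coding bases, stop codon included, are shown from the GENCODE M21 transcripts of both genes, with capitals at the 12 positions where they differ.
Vangl1: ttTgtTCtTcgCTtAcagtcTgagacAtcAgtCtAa
Vangl2: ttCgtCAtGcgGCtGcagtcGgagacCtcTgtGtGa
The longest run of identical bases between Vangl1 and Vangl2 transcripts was 23 bases. In the remaining pairs of members the longest shared run lay in the coding sequence. It falls in the cadherin repeats of Celsr1 and Celsr2, at the start of the cytoplasmic tail by which Fzd3 and Fzd6 bind Dishevelled, and in the DEP domain of Dvl1 and Dvl2. The third Dishevelled gene, Dvl3, shares its longest run with Dvl1 at the start of the PDZ domain and with Dvl2 in the DIX domain. The third Celsr gene, Celsr3, shares longer coding runs with Celsr1 (32 bases) and with Celsr2 (27 bases), which are not printed.
Celsr1 and Celsr2, 20 bases: tttgtggaagagaacagccc
Fzd3 and Fzd6, 20 bases: tgggttggaagcaaaaagac
Dvl1 and Dvl2, 21 bases: gatgtggtggactggctgtac
Dvl1 and Dvl3, 29 bases: aacatcatcaccgtcactctcaacatgga
Dvl2 and Dvl3, 29 bases: gattttggggtggtgaaggaagagatctc
All of these runs are shorter than the reads the study describes, so an untrimmed read would differ between the paralogues at 1 or more bases.

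Promoter sequences, taken here as 250 bases before to 50 bases after the start of the gene in RefSeq (GRCm38.p6), were on hand for 5 of the 10 genes (Vangl2, Celsr2, Dvl1, Dvl2 and Ptk7). Those of Vangl2 and Celsr2, the genes that passed the test below, are shown in the direction of transcription with each CpG in capitals. The Vangl2 promoter lies at chr1:172027246-172027545 on the minus strand and the Celsr2 promoter at chr3:108415530-108415829 on the minus strand.
Vangl2: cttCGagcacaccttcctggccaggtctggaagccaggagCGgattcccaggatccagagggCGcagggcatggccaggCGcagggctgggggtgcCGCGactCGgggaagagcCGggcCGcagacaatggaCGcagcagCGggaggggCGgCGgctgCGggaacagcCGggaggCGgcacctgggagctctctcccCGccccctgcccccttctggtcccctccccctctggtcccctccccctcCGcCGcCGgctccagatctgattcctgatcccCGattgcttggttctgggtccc
Celsr2: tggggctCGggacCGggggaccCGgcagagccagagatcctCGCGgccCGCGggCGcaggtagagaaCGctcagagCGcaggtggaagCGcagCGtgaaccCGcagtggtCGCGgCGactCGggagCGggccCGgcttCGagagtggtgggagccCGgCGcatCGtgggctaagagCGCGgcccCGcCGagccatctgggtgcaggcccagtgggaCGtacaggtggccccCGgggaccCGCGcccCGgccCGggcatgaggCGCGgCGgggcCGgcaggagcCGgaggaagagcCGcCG
Both are rich in G, C and CpG: Vangl2 has 71.3% GC and 21 CpG, and Celsr2 has 76.3% GC and 40 CpG, against medians of 52.7% GC and 7 CpG over 32851 promoters of the same length. The promoters of members that were not called are rich as well: Dvl1 has 72.3% GC and 35 CpG, Dvl2 62% and 20, and Ptk7 66% and 22. The motifs searched on both strands were the core of an NRF1 site (GCGCATGCG), a STAT5 site (TTCNNNGAA) and a part of the REST site (TTCAGCACC). They are held by 1.75%, 8.30% and 0.371% of all promoters, and 0 of the 5 promoters held any of them, which says only that these letters are not in these windows.

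Vangl2 and Celsr2 were called lower in the EpoR-null samples, 2 of the 10 members, and 0 members were called higher. Over all genes tested the shares were 3.84% lower and 0.929% higher. By transcript length, 8.43% of the genes in the decile of Vangl2 and 23.8% in that of Celsr2 were called lower. With the FDR threshold alone 3 members were lower, Celsr1 being the additional one, and 0 were higher, beside 5.49% and 1.81% of all genes. In all, 9 of the 10 log2 fold changes were below 0, with a median of -0.31 against 0.06 over all genes tested, of which 43.8% were below 0. Both EpoR-null samples lay below all 3 controls for 4 members (Vangl2, Celsr1, Celsr2 and Fzd3) and above them for 0, where 22.1% and 21.2% of all genes did so. In bulk RNA, fewer cells of a type and less RNA per cell cannot be told apart. The p-values rest on the spread between these samples, each labelled as a replicate of its genotype. The dispersion used for each gene is also drawn toward that of the other genes. In the controls this spread pools the wild type samples with the library labelled heterozygote.

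**Figure D1:**
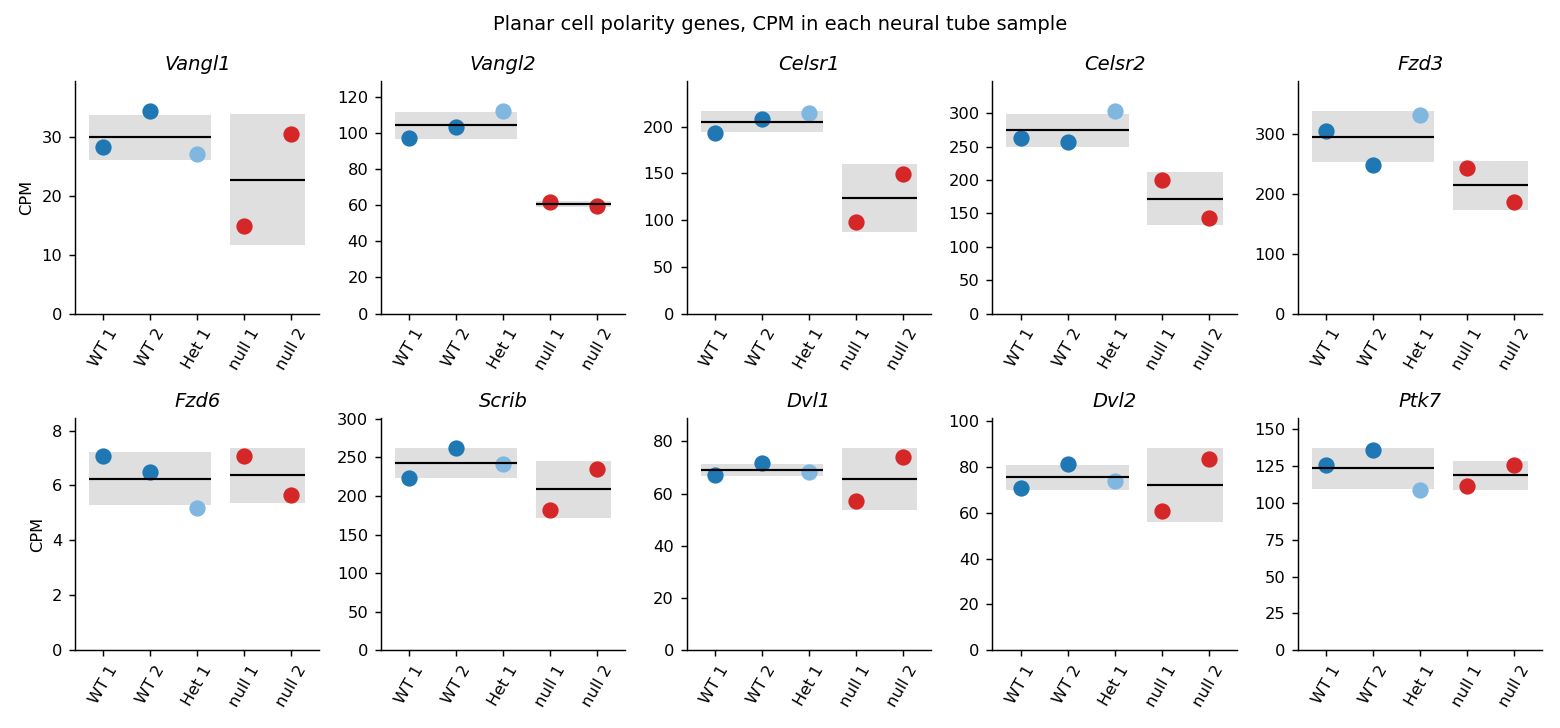
CPM of each gene (y axis, from 0) in each neural tube sample (x axis): wild type in dark blue, heterozygote in light blue, EpoR-null in red, with the group mean as a line and 1 SD as grey shading. The EpoR-null points lie below all controls for Vangl2, Celsr1, Celsr2 and Fzd3, and overlap or straddle the control range for the rest.

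Vangl2 encodes the membrane protein that marks the Vangl side of the cell, and was the member with the clearest difference. It was at 97.4 and 103 CPM in the wild type samples, 112 CPM in the library labelled heterozygote, and 61.8 and 59.4 CPM in the EpoR-null samples. The EpoR-null values were close to each other and well below all controls, at 58.2% of the control mean (104 ± 7.30 CPM, SD, n = 3, against 60.6 ± 1.68 CPM, n = 2). In the exact test the log2 fold change was -0.78 ± 0.14 (SE, p = 2.69e-08, FDR = 8.32e-06), the 41st lowest p of the 12703 genes. Vangl2 remained called when any 1 sample was left out, with log2 fold changes of -0.83 to -0.73 and FDR of 1.32e-07 to 0.00841. In the fits that keep 1 EpoR-null sample, here and for the genes below, the spread comes from the controls alone. The lone sample is assumed to vary as they do, so such an FDR does not measure the spread between EpoR-null samples. A stricter alternative, the quasi-likelihood F-test, called 0 genes in all (3052 had an unadjusted p under 0.05). Vangl2 had an FDR of 0.0590 in it, the lowest value of that test but a shared one. Fat1, described below, had the same FDR with a smaller unadjusted p, so this FDR does not rank Vangl2 first. A common dispersion gave Vangl2 an FDR of 0.269, and offsets for transcript length and GC content gave 0.281.

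Vangl1, the paralogue of Vangl2, was less abundant and more variable. Its level was 28.4 and 34.4 CPM in the wild type samples, 27.1 CPM in the library labelled heterozygote, and 15.0 and 30.7 CPM in the EpoR-null samples. Only EpoR-null replicate 1 lay below the controls, while replicate 2 lay among them, and the exact test did not call the difference (log2 fold change -0.39 ± 0.35, FDR = 0.589). The value rests on that sample: without it the log2 fold change was 0.03, and with it as the only EpoR-null sample -1.01 (FDR = 0.00297, with the spread taken from the controls alone). Vangl1 and Vangl2 together came to 126, 138 and 139 CPM in the controls and to 76.8 and 90.1 CPM in the EpoR-null samples. Vangl1 supplied 19.5% to 25.03% of these reads in the controls and 19.5% and 34.0% in the EpoR-null samples, so the share differed more between the EpoR-null samples than between the groups.

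Celsr1 and Celsr2 are the large membrane-spanning cadherins that join the polarity complexes of neighbouring cells. Celsr1 was at 193, 208 and 215 CPM in wild type replicates 1 and 2 and the library labelled heterozygote, and at 97.6 and 150 CPM in the EpoR-null samples. The groups did not overlap, but the EpoR-null samples were far apart (124 ± 36.8 CPM, n = 2, against 205 ± 11.2 CPM, n = 3). In the exact test Celsr1 had a log2 fold change of -0.73 ± 0.22 and an FDR of 0.0225, with a p of 0.00113 just outside the p threshold. Celsr1 was called without EpoR-null replicate 2 (log2 fold change -1.07), whereas without replicate 1 the log2 fold change was -0.46 (exact test, p = 0.0029, FDR = 0.0132), the spread in both fits coming from the controls alone.

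Celsr2 was at 263, 257 and 303 CPM in the same 3 controls and at 200 and 144 CPM in the EpoR-null samples. Here too both EpoR-null values were below all controls, and now replicate 2 was the lower (172 ± 39.7 CPM, n = 2, against 275 ± 24.9 CPM, n = 3). Celsr2 was called in the exact test, just inside the p threshold (log2 fold change -0.68 ± 0.20, p = 0.000968, FDR = 0.0205). Its call was lost on leaving out any sample other than EpoR-null replicate 1, with log2 fold changes of -0.72 to -0.46 (without wild type replicates 1 and 2, FDR = 0.215 and 0.105, without the library labelled heterozygote 0.167, and without EpoR-null replicate 2, p = 0.00363 by the same exact test and FDR = 0.0331). It was also lost in the exact test with RLE size factors (p = 0.00113) and library sizes alone (p = 0.00197), where Celsr1 was called instead, and with a common dispersion (FDR = 0.404). The quasi-likelihood F-test gave FDR of 0.114 and 0.105 for Celsr1 and Celsr2.

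The sum of the 2 cadherins differed little between the EpoR-null samples, although each gene did. Celsr1 and Celsr2 together came to 456, 466 and 518 CPM in the controls and to 298 and 294 CPM in the EpoR-null samples. Celsr1 made up 42.3%, 44.7% and 41.5% of that sum in the controls, and 32.8% and 51.0% in the EpoR-null samples. The EpoR-null samples therefore lay on either side of the control range, with nearly equal sums. Celsr3 is left out of these sums. It was at 25.8, 21.4 and 30.0 CPM in the controls and at 34.4 and 11.9 CPM in EpoR-null replicates 1 and 2. The shares and sums were not tested.

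**Figure D2:**
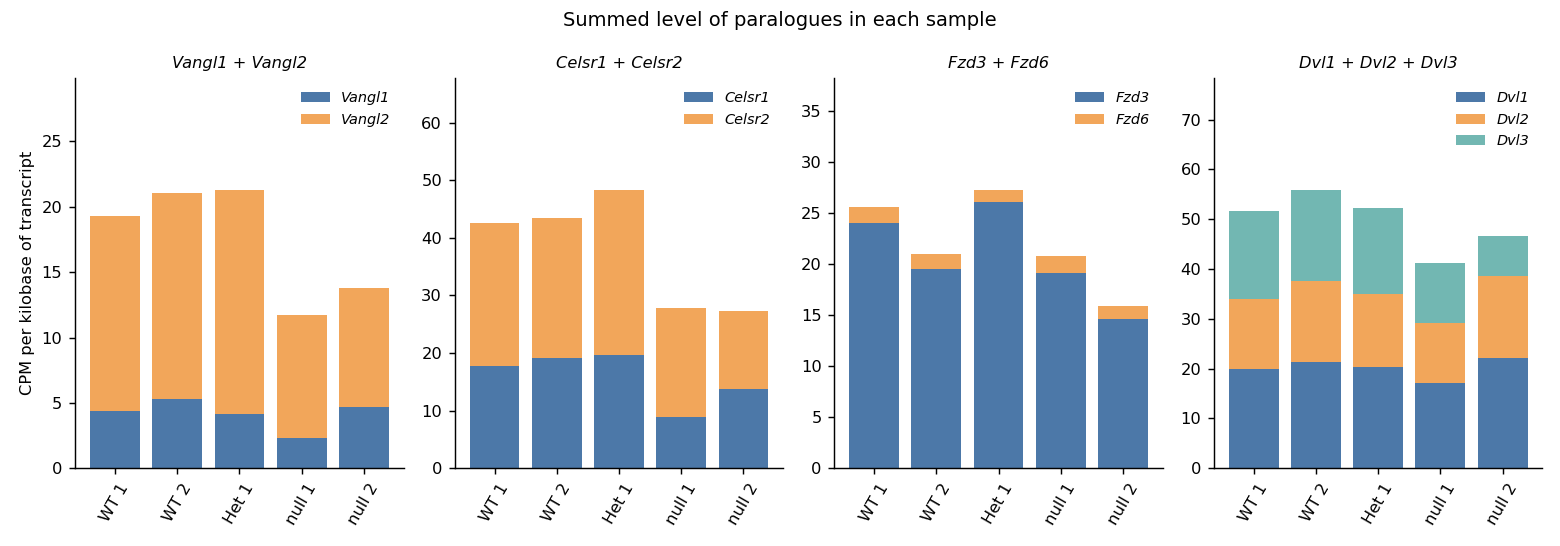
Stacked bars of CPM per kilobase of transcript (y axis, from 0) for the member paralogues of each family in each sample (x axis). Dvl3 is added to the Dishevelled genes, and Celsr3 is left out. The Celsr bars of the EpoR-null samples are of nearly equal height with different proportions, and the Dvl3 segment is smallest in EpoR-null replicate 2.

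Fzd3 and Fzd6 are the Frizzled receptors of this pathway, and Fzd3 made up nearly all of their reads. Fzd3 was at 305, 248 and 332 CPM in wild type replicates 1 and 2 and the library labelled heterozygote, and at 243 and 185 CPM in the EpoR-null samples. Both EpoR-null samples were below all controls, yet replicate 1 was within a few CPM of wild type replicate 2, and the exact test did not call the difference (log2 fold change -0.46 ± 0.21, p = 0.0297, FDR = 0.186). Fzd6 was at 7.06, 6.50 and 5.19 CPM in the controls and 7.07 and 5.67 CPM in the EpoR-null samples. The groups overlapped, and the log2 fold change was 0.02 with a 95% interval of -0.63 to 0.67. Fzd3 supplied 97.4% to 98.5% of the reads of the pair in the controls and 97.2% and 97.0% in the EpoR-null samples.

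Dvl1 and Dvl2 carry the signal from Frizzled into the cell. Dvl1 was at 67.1, 71.6 and 68.4 CPM in the controls, in the same order, and at 57.3 and 74.0 CPM in the EpoR-null samples. Dvl2 was at 70.8, 81.4 and 73.8 CPM in the controls and at 60.5 and 83.4 CPM in the EpoR-null samples. For both genes EpoR-null replicate 1 was the lowest of the 5 samples and replicate 2 the highest, and neither was called (log2 fold changes -0.07 ± 0.17 and -0.07 ± 0.19, with 95% intervals of -0.40 to 0.26 and -0.44 to 0.31). Dvl1 kept a near-constant share of the reads of the pair, 46.8% to 48.6% in the controls and 47.0% and 48.6% in the EpoR-null samples.

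Scrib, a scaffold protein of the basolateral membrane that binds Vangl2, was at 223, 262 and 242 CPM in the controls and 182 and 235 CPM in the EpoR-null samples. Replicate 1 lay below all controls and replicate 2 among them, and the difference was not called (log2 fold change -0.22 ± 0.18, 95% interval -0.57 to 0.13, FDR = 0.543). Ptk7, a membrane protein with an inactive kinase domain that acts with Wnt receptors in cell polarity, was at 126, 136 and 108 CPM in the controls and 111 and 126 CPM in the EpoR-null samples. The EpoR-null samples fell within the control range, with a log2 fold change of -0.06 ± 0.16 (95% interval -0.38 to 0.26). The intervals of Dvl1, Dvl2, Scrib and Ptk7 do not reach as low as the estimate for Vangl2. The 95% interval of Vangl2 itself, -1.05 to -0.51, overlaps that of Scrib, and the differences between members were not tested. Offsets for transcript length and GC content, which moved Vangl2 to -0.47, are not part of these intervals.

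The library labelled heterozygote was also set beside the wild type samples, as a description of 1 sample against 2, with no test run. It lay above both wild type samples for Vangl2, Celsr1, Celsr2 and Fzd3. These wild type samples and this library are also the controls of the EpoR-null comparison. The library was below both wild type samples for Vangl1, Fzd6 and Ptk7, and between them for Scrib, Dvl1 and Dvl2. The largest distances from the wild type mean were -0.39 for Fzd6, -0.27 for Ptk7 and 0.26 for Fzd3 on the log2 scale. Without this library the log2 fold changes of Vangl2, Celsr1, Celsr2 and Fzd3 were -0.73, -0.70, -0.60 and -0.37, of which Vangl2 was called.

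Levels can be set against each other only per length of transcript, so CPM per kilobase of the longest annotated transcript was used for the order of the 10 genes. In the controls (mean ± SD, n = 3) Scrib was highest at 43.3 ± 3.49 CPM per kilobase, followed by Ptk7 at 29.1 ± 3.27, Celsr2 at 25.9 ± 2.35, Fzd3 at 23.2 ± 3.34 and Dvl1 at 20.6 ± 0.698. Lower in the order came Celsr1 at 18.9 ± 1.03 CPM per kilobase, Vangl2 at 16.0 ± 1.12, Dvl2 at 15.0 ± 1.08, Vangl1 at 4.59 ± 0.597 and Fzd6 at 1.45 ± 0.223. Neighbours whose ranges over the controls overlapped were Ptk7 with Celsr2, Celsr2 with Fzd3, Fzd3 with Dvl1, and Vangl2 with Dvl2. Within each control sample Celsr2 was nevertheless above Fzd3 (24.8, 24.3 and 28.6 against 24.0, 19.5 and 26.0 CPM per kilobase). The other overlapping pairs changed order between control samples, and no order was tested. In the EpoR-null samples Scrib and Ptk7 were again highest and Vangl1 and Fzd6 lowest, while the mean levels of Celsr2, Celsr1 and Vangl2 stood at places 5, 7 and 8, each lower than the 3, 6 and 7 they held in the controls. The order depends on which length is used: per kilobase of coding sequence, Fzd3 came first and Vangl2 next, since most of their longest transcripts is not coding.

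Of 46 further genes of the pathway, listed by role, 45 were in the files and 44 were tested, Wnt11 being under the CPM minimum at 0.0865 to 0.739 CPM. 3 were called lower (Dvl3, Rock2 and Fat1) and 0 higher, beside the 3.84% and 0.929% of all genes, and 26 of the 44 log2 fold changes were below 0 (median -0.14). Among the 9 core paralogues Dvl3 alone was called. Dvl3 was at 69.8, 73.3 and 68.5 CPM in the controls and 48.5 and 31.7 CPM in the EpoR-null samples, below all controls (exact test, log2 fold change -0.82 ± 0.22, p = 0.000309, FDR = 0.00912). Its share of the reads of the 3 Dishevelled genes was 32.4% to 33.6% in the controls and 29.2% and 16.8% in the EpoR-null samples, where Dvl1 and Dvl2 did not pass the test. The call of Dvl3 was lost in 8 of 18 alternative fits. Among them were the quasi-likelihood F-test (FDR = 0.0941, and 0.0738 with the replicate number as a block) and the fits without any single control (FDR = 0.0982 to 0.183). It was also lost with library sizes alone and with a common dispersion. Fzd7, the Frizzled gene with the most reads of that group, was at 236, 227 and 245 CPM in the controls and 145 and 211 CPM in the EpoR-null samples, and was not called (log2 fold change -0.41 ± 0.20, FDR = 0.249).

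Among 13 downstream effectors Rock2, a kinase that acts on myosin to drive apical constriction and cell rearrangement, was called lower. Rock2 was at 106, 92.4 and 105 CPM in the controls and 67.9 and 60.3 CPM in the EpoR-null samples, with no overlap (log2 fold change -0.66 ± 0.15 with an exact test FDR of 0.000745 and a quasi-likelihood FDR of 0.0622). The call of Rock2 was lost without wild type replicate 1 (FDR = 0.116) and without the library labelled heterozygote (FDR = 0.0579). Daam2, a formin of a family that binds Dishevelled, had an FDR of 0.0311 with a p of 0.00179, outside the p threshold (log2 fold change -0.76 ± 0.24). Cdc42, the small GTPase with the most reads of this group, was at 398, 384 and 389 CPM in the controls and 434 and 442 CPM in the EpoR-null samples, above all controls but not called (log2 fold change 0.17 ± 0.13, FDR = 0.515).

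In the Fat and Dachsous system, which includes giant cadherins and acts beside the core pathway, Fat1 was called lower. No gene was called among the ligands and co-receptors (7 tested), the genes for trafficking and stability of core proteins (6 tested) or the Scribble complex partners (5 tested). Fat1 was at 120, 113 and 122 CPM in the controls and 65.6 and 64.3 CPM in the EpoR-null samples, which did not overlap (log2 fold change -0.86 ± 0.13 with an exact test FDR of 5.16e-08 and a quasi-likelihood FDR of 0.0590). Fat1 was called in all 5 fits that left out a sample, of which 2 hold a single EpoR-null sample, but not with a common dispersion (FDR = 0.177). The genes with the most reads in the remaining groups were not called: Ryk, a Wnt co-receptor, had a log2 fold change of 0.04 ± 0.12. Sec24b, a coat protein that carries Vangl2 out of the endoplasmic reticulum, had a log2 fold change of -0.32 ± 0.14 (FDR = 0.18), and Llgl1, a partner of Scrib in apicobasal polarity, had a log2 fold change of -0.12 ± 0.17.

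**Figure D3:**
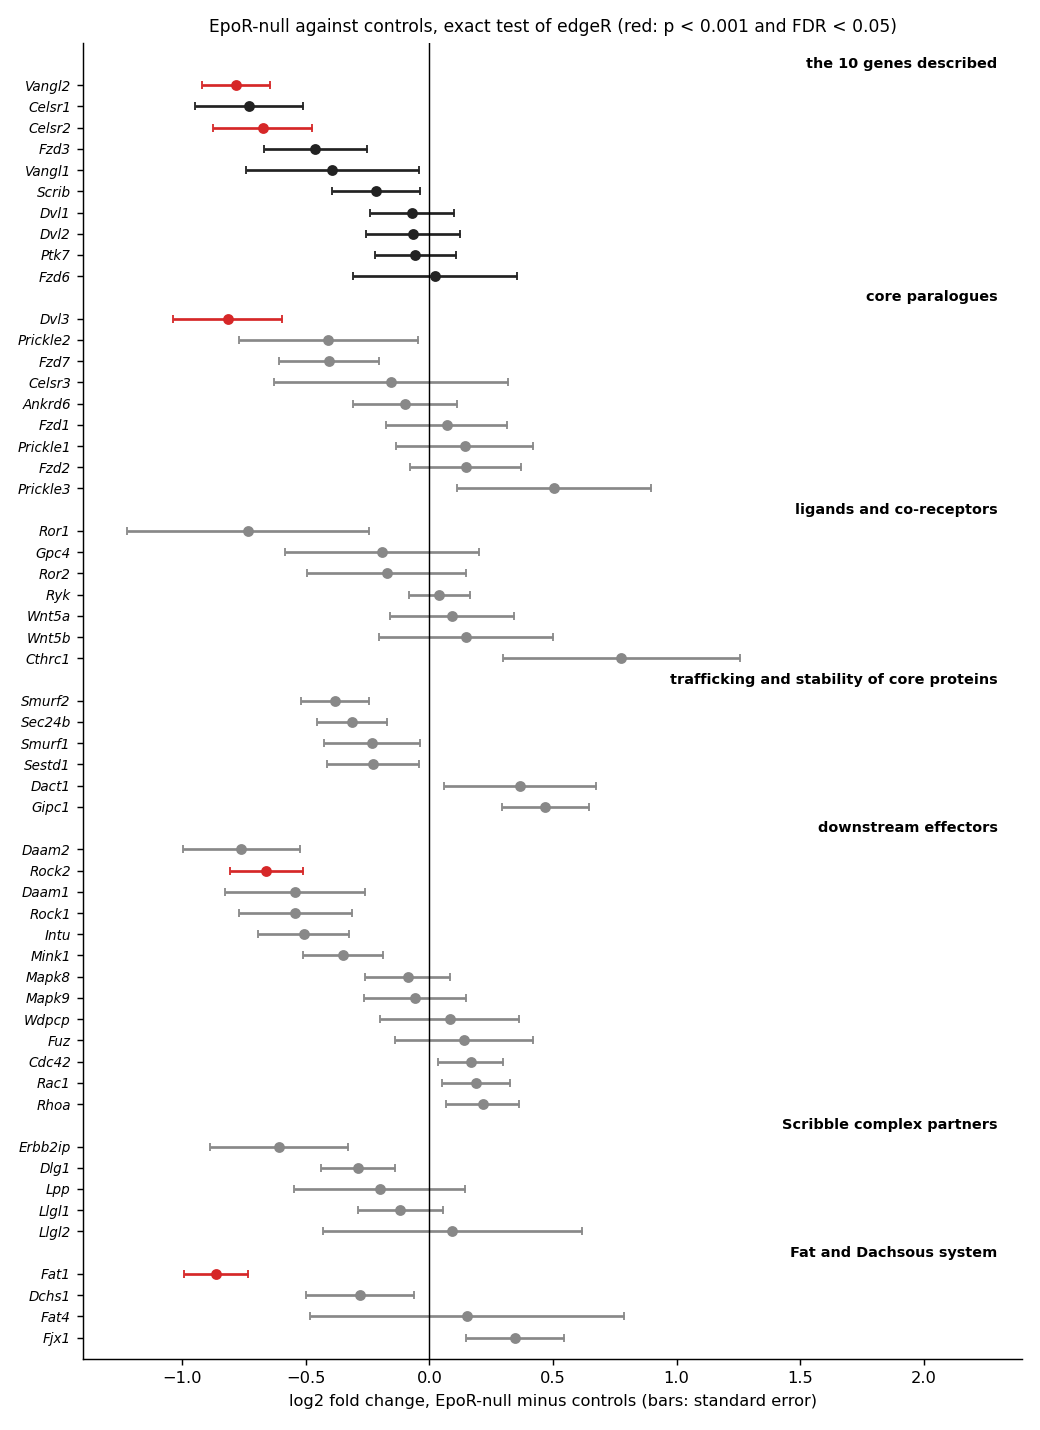
Log2 fold change, EpoR-null minus controls (x axis), of the 10 genes and of the 44 other pathway genes tested, grouped by role, with bars of 1 standard error and called genes in red. The red points, Vangl2, Celsr2, Dvl3, Rock2 and Fat1, all lie between -0.86 and -0.66.

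The members are long genes, and in these data the fold change moved with transcript length. All 10 were longer than the median transcript of the genes tested (3245 bases), from Dvl1 (3358 bases) to Fzd3 (12734 bases), and Celsr1 (10879 bases), Celsr2 (10598 bases) and Fzd3 were in the longest length decile. Over the 99.1% of genes tested with a length, the Spearman correlation of log2 fold change and length was -0.66, a description across genes of the same 5 libraries. The median log2 fold change was 0.44 in the shortest decile of genes, of which 7.22% were called higher, and -0.47 in the longest decile, of which 23.8% were called lower. Vangl2 (6528 bases) and Vangl1 (6531 bases) fall in the next decile, with a median of -0.28 and 8.43% called lower. Read against genes of like length, Vangl2 at -0.78 was below the median of its decile, Celsr1 at -0.73 and Celsr2 at -0.68 were below that of the longest decile, and Fzd3 at -0.46 was at it.

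**Figure D4:**
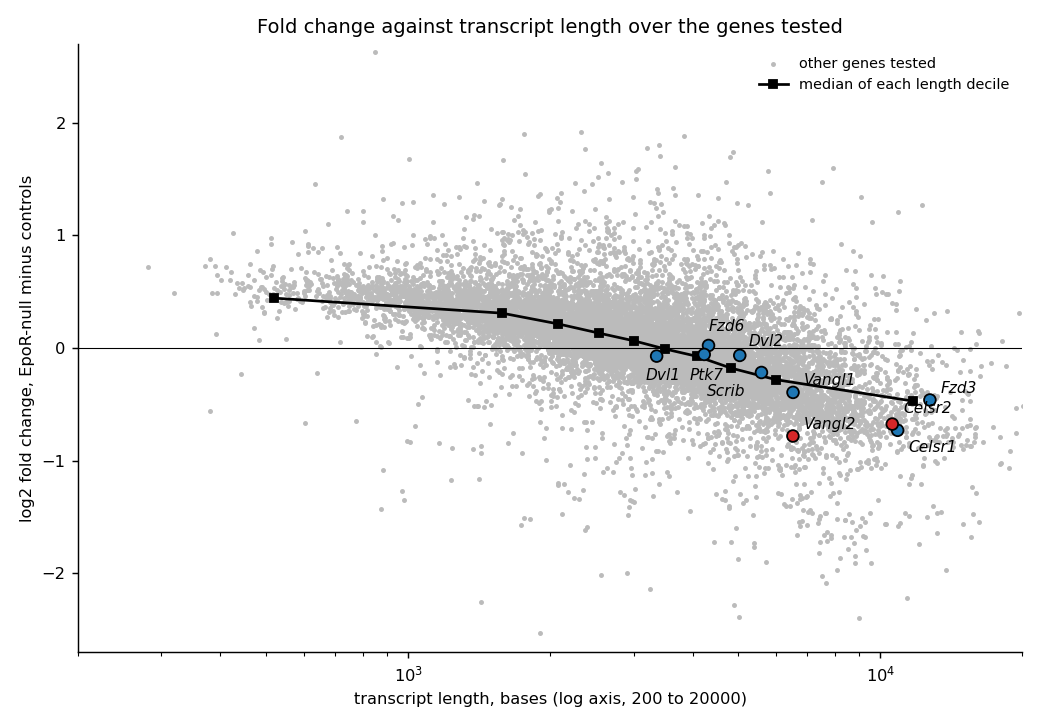
Log2 fold change, EpoR-null minus controls (y axis), against transcript length in bases (x axis, log scale) for the genes tested, with the median of each length decile as squares, the called members in red and the other members in blue. The medians fall from 0.44 to -0.47, and Vangl2 lies below the line while Fzd3 lies on it.

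With offsets that remove the trend of each sample on transcript length and GC content, 0 members were called in the likelihood-ratio test of edgeR, which called 158 genes against 627 without offsets. The log2 fold change of Vangl2 became -0.47 (edgeR's likelihood-ratio test with Benjamini-Hochberg adjustment, FDR = 0.281), that of Celsr1 -0.17, that of Celsr2 -0.20 and that of Fzd3 0.29, and 6 of the 10 members remained below 0 (median -0.05). Of the other pathway genes Dvl3 (3983 bases), which is shorter than most members, kept its value and call in this likelihood-ratio test (log2 fold change -0.83, FDR = 0.00447). Its call was lost in the quasi-likelihood F-test with the replicate block and the offsets (FDR = 0.198). In the likelihood-ratio test with offsets Fat1 (14814 bases) came to -0.15 and Rock2 (7644 bases) to -0.14. Whether the trend lies in the RNA or arose in making the libraries was not tested.

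**Figure D5:**
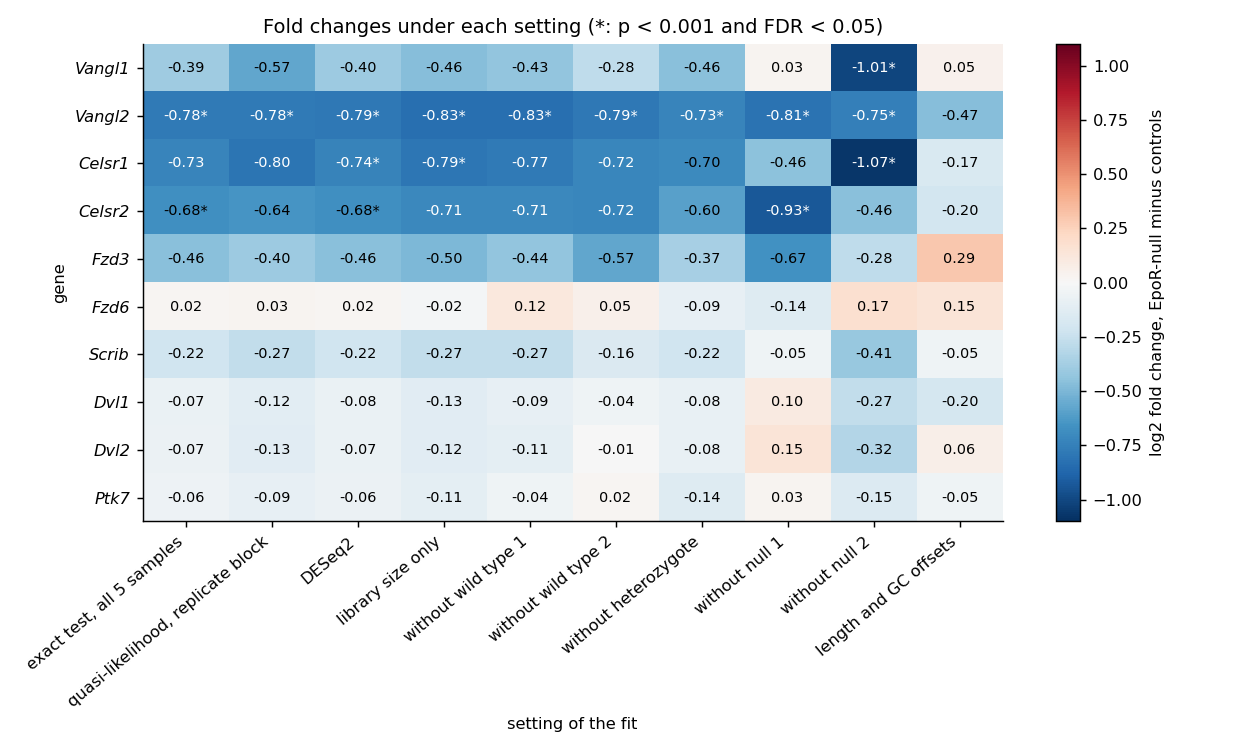
Log2 fold change, EpoR-null minus controls (colour and printed value), of each gene (rows) under the main exact test and 9 other settings of the fit (columns), with an asterisk where a gene was called. Vangl2 is between -0.83 and -0.73 in every column except that with length and GC offsets, where it is -0.47, and the values of Celsr1, Celsr2 and Fzd3 shrink or change sign there.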

How the data were processed

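Per the labels, the authors used Trimmomatic 0.32 for trimming, TopHat2 2.1.0 for alignment to mm9 (the study's methods name a human build) and HTSeq 0.6.1 for counting. They deposited raw, unnormalized read counts in 1 table per sample. Reads that align to several places or genes are not counted by HTSeq. The annotation and strand setting are not given in the sources used here. Summary lines were left out. Samples were grouped by the labels. Following the study, TMM factors, tagwise dispersions and exactTest of edgeR 4.0.16 (R 4.3.3, limma 3.58.1) were used, with Benjamini-Hochberg adjustment over all 12703 genes tested. Fold change errors come from the negative binomial fit, and 95% intervals from these errors. Depth was 19316126 to 41169218 reads on genes. No pair of samples agreed within sampling noise (chi-square per degree of freedom 11.9 to 134).

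Members and lists were chosen with earlier results of these data known. The genes named are the members, other pathway genes that were called or had the most reads of their role group, and Epor. Daam2 and Celsr3 were added after their values were seen. Transcript length and GC content are those of the longest GENCODE M21 transcript, matched by symbol or older symbol. Offsets were loess trends (span 0.5). Alternatives were the quasi-likelihood F-test without and with the replicate number as a block, DESeq2 1.42.0, the likelihood-ratio test, other scalings and filters, a common dispersion, thinned counts, leaving out each sample, the offsets, and, added after seeing the data, the older dispersion functions. Fits were tested on simulated counts drawn from the real samples' means, library sizes and estimated dispersions, with changes planted in a part of the genes. A trend on transcript length was added only for the likelihood-ratio test. Fits that leave 1 EpoR-null sample take the spread from the controls.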

Additional observations from a re-analysis of the deposited data

How the results depend on the processing

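Over 18 alternatives each for the 10 members and for Dvl3, Rock2 and Fat1, 180 of 234 fold changes kept their direction and side of the threshold, 33 lost the call, 8 gained it and 13 changed sign. Only called genes can lose a call. Of 18 alternatives each, the call was lost in 11 for Celsr2, 8 for Dvl3, 6 for Rock2, 4 for Vangl2 and 4 for Fat1. The cause of these changes was not tested. In place of 606 genes called (488 lower, 118 higher), the quasi-likelihood F-test called 0, with 0 members and 0 other pathway genes and 3052 genes at an unadjusted p under 0.05. A common dispersion called 257 (157 lower), with 0 members and 0 other pathway genes. DESeq2 called 1028 (753 lower, 275 higher), with 3 members, the older dispersion functions 351 (324 lower, 27 higher), the FDR alone 928 (230 higher), and no filter 64 higher. The likelihood-ratio test with length and GC offsets called 158 genes (136 lower, 22 higher), with 0 members and 1 other pathway gene. Leaving out each sample gave 115 to 2296 genes (111 to 1283 lower, 4 to 1013 higher), 1 to 3 members and 1 to 13 other pathway genes. The counts were 115 without wild type replicate 1, 294 without wild type replicate 2, 253 without the heterozygote, and 2296 and 980 without EpoR-null replicates 1 and 2.

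Groups share replicate numbers only as labels, which name no common litter or day. The differences between replicates 1 and 2 of wild type and EpoR-null correlated over genes (Pearson correlation 0.468, Spearman correlation 0.538), from only 2 pairs. With the replicate number as a block the quasi-likelihood F-test called 291 genes (266 lower, 25 higher), with 1 member, Vangl2 (FDR = 0.0414), and Fat1 and Rock2 of the other pathway genes. With the replicate block and the length and GC offsets it called 0 genes (0 lower, 0 higher, 0 members, 0 other pathway genes), with the lowest FDR at 0.153 and 1093 genes at an unadjusted p under 0.05.

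Changes of sign were seen in members that were not called. With length and GC offsets the log2 fold change was 0.051 for Vangl1, 0.064 for Dvl2 and 0.29 for Fzd3 (0.27 with the replicate block). Fzd6 was at -0.019 with library sizes only and -0.012 with no filter. Without single samples the log2 fold changes ranged from -1.01 to 0.028 for Vangl1, -0.14 to 0.17 for Fzd6, -0.27 to 0.10 for Dvl1, -0.32 to 0.15 for Dvl2 and -0.15 to 0.027 for Ptk7.

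Per kilobase, Dvl2 made up 42.1% of Dvl1 and Dvl2 in the controls and 42.1% in the EpoR-null samples (52.2% of reads in both), and Fzd3 94.0% and 91.9% of Fzd3 and Fzd6. Per kilobase of coding sequence the order in the controls was Fzd3 (1), Vangl2 (2), Scrib (3), Ptk7 (4), Dvl2 (5), Dvl1 (6), Celsr2 (7) and Celsr1 (8), ahead of Vangl1 and Fzd6. Changes smaller than the intervals given for the members were not detectable.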
